A study of Rattus norvegicus with 24 samples.

Results

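Protocadherin genes were taken from the 24 gene tables as every reference gene whose name starts with Pcdh, which gave 49 genes of the 32883 reference genes. Of these, 38 were clustered genes on the + strand of chromosome 18, with 3 alpha, 17 beta and 18 gamma genes, and 11 were non-clustered genes. RNA-Seq was made from frontal cortex of adult male Sprague-Dawley rats taken after inhalation of tungsten particles. By the labels, the aerosol held 0 mg/m3 in Control, 5 mg/m3 in Low and 80 mg/m3 in High, with 8 rats in each group and 1 library per rat. The labels name no genetic change and no other difference between groups, and no source used here says how rats were split over extraction or sequencing days. In what follows a rat is called by its library number, 49 to 56 for Control, 57 to 64 for Low and 65 to 72 for High.

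Protocadherins are the largest group of the cadherin superfamily, and they are membrane proteins that hold cells together through calcium-dependent contacts. In the clustered families, each neuron switches on its own small set of genes, each from its own promoter, and the resulting mix of surface proteins lets the branches of a neuron recognise and avoid each other. Alpha and gamma genes each add a variable first exon to a set of constant exons that the whole family shares, while each beta gene is a single exon with no constant part. CTCF and cohesin bind at these promoters and bring them to a distant enhancer. Non-clustered protocadherins are separate genes with their own promoters, and several of them guide axon growth, synapse formation and cell sorting in the developing brain.

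Levels are given as scaled coverage, which is the mean read depth per base of a gene divided by the summed coverage of all reference genes of that rat and multiplied by 1000000. Scaled coverage is per base, which takes out gene length, but FPKM and coverage did not agree for some genes, among them Pcdha13, Pcdh19 and Pcdhgc3, so the place of these among the other genes depends on the column read. Summed coverage before scaling ran from 1.67e+06 to 2.82e+06 over the Control rats, from 1.64e+06 to 3.07e+06 over the Low rats and from 1.77e+06 to 2.67e+06 over the High rats. The tables give depth per base and no read counts, so the counting error of a low gene is not known. Mitochondrial genes took 21.8% to 33.8% of the coverage of a rat. Of the 9 marker lists, those of cortical neurons, astrocytes, oligodendrocytes and their precursors, and microglia had each gene above 0 in every rat. Being above 0 in bulk RNA does not set cortex apart from other brain regions. The striatal list, of the region below the cortex, was above 0 too, with sums of 208 to 1567 per rat. In these bulk samples, fewer cells of a type and less RNA per cell cannot be told apart. Rat 49 of Control and rat 57 of Low stood apart over the protocadherin genes, and each comparison is given with and without them.

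All 49 genes were listed on 1 row each. Clustered genes ran over chr18:29966245-30969361 in the positions of the tables. The labels name the build mRatBN7.2, but chromosome 1 of the tables reaches position 282724300, which is past the length of that chromosome in the named build, so the build of the tables is taken as not given. The spans of the clustered genes did not overlap: 0 of the 38 shared a base with another reference gene on the same strand. Over all reference genes, 10.5% did so. Among the non-clustered genes, Pcdh15 did so with an unnamed small gene inside its span. The beta genes and 17 of the 18 gamma genes were listed as short spans, 2379 bases for Pcdhgb4 and 3194 bases for Pcdhga2 at the ends of that gamma range. Pcdhgc3 covered 55520 bases and Pcdha13 covered 228692 bases. Pcdhgc3 is thus the only listed gamma gene that reaches over the downstream part of the cluster, and Pcdha13 the only such alpha gene. No source used here says how reads that match several of these similar exons were divided, so the levels of single clustered genes are uncertain in that respect.

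Among the listed protocadherin genes, non-clustered genes held the highest levels. Pcdh10, which binds the actin-regulating WAVE complex, was the highest protocadherin gene in 23 of 24 rats. Its Control values ran from 31.9 over a median of 71.7 to 86.8, its Low values from 48.1 over 73.6 to 96.5, and its High values from 49.1 over 62.7 to 76.9. The ranges of the 3 groups overlapped widely, and the lowest Control value came from rat 49.

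Pcdh1, a delta-1 protocadherin also known from airway epithelium, followed with 46.6 ± 15.9 (SD, n = 8) in Control, 51.5 ± 15.97 in Low and 39.4 ± 7.63 in High. Its lowest Control value was 10.4 against a median of 50.6, and its lowest Low value was 15.97 against a median of 53.3. Those values belong to rats 49 and 57, and in High the range was only 28.5 to 49.3. Pcdh9, also of the delta-1 group, had a Control mean of 43.4 ± 11.6, a Low mean of 50.7 ± 15.4 and a High mean of 37.9 ± 10.9. Pcdh7, the remaining delta-1 gene listed, had means of 27.3 ± 9.35, 33.0 ± 10.5 and 23.7 ± 9.80 in the same order. For each of these delta-1 genes the mean was highest in Low and lowest in High, with ranges that overlapped. Pcdh10, Pcdh17, Pcdh18, Pcdh19 and Pcdh20 had the same order of means. Of all genes tested, 33.5% had a fold change below 0 in Low against Control and 64.0% in High against Control.

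Delta-2 genes spanned a wider range of levels. Pcdh8, known in rat as the activity-induced protein arcadlin, had a Control mean of 35.0 ± 7.12, a Low mean of 37.3 ± 3.99 and a High mean of 37.6 ± 4.76. Pcdh17, an adhesion protein of circuits between cortex and basal ganglia, had means of 22.8 ± 6.40, 25.0 ± 4.67 and 21.4 ± 5.43. Pcdh8 was thus the exception among the high genes, with its Low and High means almost equal. Pcdh19, the X-linked gene whose loss causes an epilepsy in girls, had means of 9.83 ± 2.41, 9.97 ± 1.66 and 8.99 ± 2.19. Pcdh18 was far lower, at 3.14 ± 0.713, 3.31 ± 0.918 and 2.87 ± 0.726.

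Of the other non-clustered genes, Pcdh20 had a Control mean of 23.1 ± 4.68, a Low mean of 24.4 ± 3.43 and a High mean of 19.6 ± 4.195. Pcdh15, part of the tip link of hair cells in the inner ear, had means of 3.80 ± 0.998, 3.09 ± 0.941 and 2.95 ± 0.495. Pcdh12, a protocadherin of endothelial cells, was lowest and under the minimum mean of 1 for a test, with 0.553 ± 0.0857, 0.445 ± 0.123 and 0.399 ± 0.124. Over the 24 rats, the mean levels of the 11 genes thus ran from 67.9 for Pcdh10 to 0.466 for Pcdh12.

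**Figure D1:**
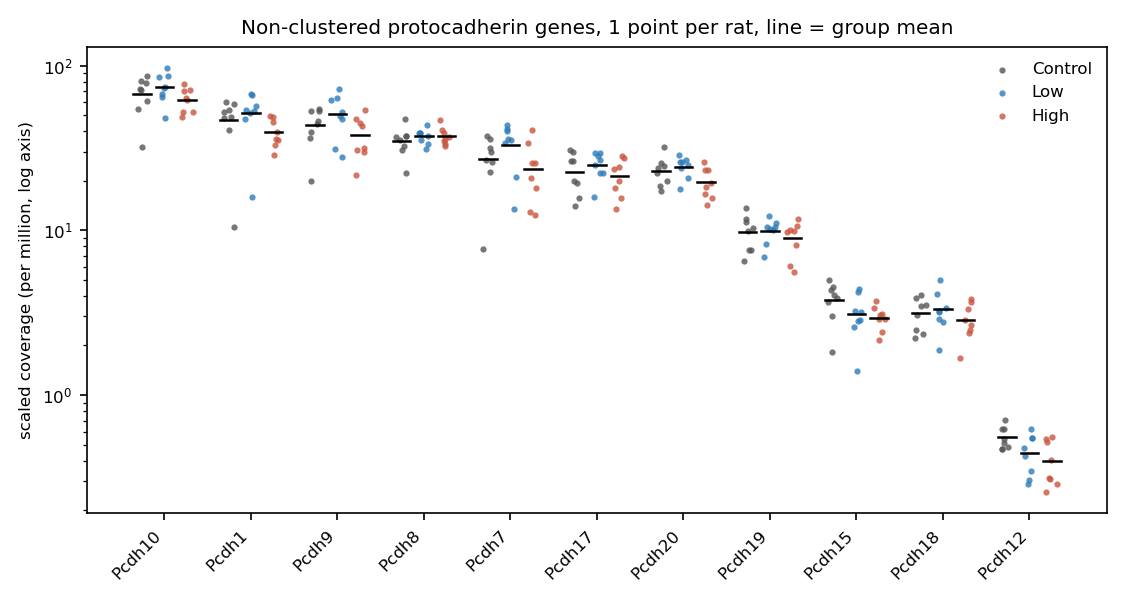
Scaled coverage of the 11 non-clustered protocadherin genes on a log axis, with 1 point per rat, colours for the 3 groups of 8 rats and a black line at each group mean. Point clouds of the groups overlap for every gene, and single low points of Control and Low stand out for Pcdh1 at 10.4 and 15.97.

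Alpha genes were listed under few names. Both entries named Pcdha4 carry different identifiers: ENSRNOG00000050378 had a mean of 3.19 over the 24 rats and ENSRNOG00000047174 a mean of 3.62. Pcdha13 had a mean of 1.92, and it was the steadiest protocadherin gene, with all 24 values between 1.56 and 2.27. Its ratio of FPKM to coverage had medians from 25.0 to 37.0 over the 3 groups, so its level relative to other genes is uncertain.

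Beta genes are single-exon genes. For Pcdhb5, Pcdhb6, Pcdhb7, Pcdhb10, Pcdhb11 and Pcdhb22, FPKM and coverage disagreed by more than 1% in some Control or High tables. The ratio of FPKM to coverage reached 1.72 for Pcdhb22 in Control and was 1 in Low for all of these. Their coverage may thus not be the same measure in every table. Over the 24 rats, Pcdhb9 led with a mean of 8.94, followed by Pcdhb5 at 7.98, Pcdhb19 at 5.88 and Pcdhb7 at 4.45. A middle set lay close together, with Pcdhb14 at 3.32, Pcdhb22 at 3.12, Pcdhb20 at 2.94, Pcdhb6 at 2.76, Pcdhb3 at 2.72, Pcdhb4 at 2.63, Pcdhb8 at 2.58, Pcdhb11 at 2.43, Pcdhb12 at 2.03 and Pcdhb10 at 1.92. Means of Pcdhb2 at 0.978 and Pcdhb21 at 0.859 were just under the minimum for a test. Pcdhb1 was listed at 0 in all 8 Control and all 8 High rats and in 5 Low rats, and its highest value was 0.0793. Each of the other 16 beta genes was above Pcdhb1 in every rat.

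Beta promoters carry a shared stretch, and the windows around it are shown because Pcdhb1 is the exception both in that stretch and in level. The RefSeq table of promoters on GRCr8 (250 bases before the start of each gene and 50 after) held 39 of the 48 distinct gene names. Capitals mark the letters GTGGCGCTG in the first 3 sequences, GCCGCTGT in the next 2 and the only CGCT of Pcdhb1 before its start in the last, all on the + strand and 5′ to 3′. They lie at chr18:29302401-29302437, chr18:29379245-29379281, chr18:29478761-29478797, chr18:29794204-29794239, chr18:29884065-29884100 and chr18:29187651-29187687 of GRCr8, in the order printed.
Pcdhb5: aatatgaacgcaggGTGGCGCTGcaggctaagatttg
Pcdhb9: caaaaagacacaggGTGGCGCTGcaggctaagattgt
Pcdhb19: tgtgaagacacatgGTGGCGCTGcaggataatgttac
Pcdhga7: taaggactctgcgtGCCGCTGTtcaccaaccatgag
Pcdhgc3: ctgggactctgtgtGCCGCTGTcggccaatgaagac
Pcdhb1: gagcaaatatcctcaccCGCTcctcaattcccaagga

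Read on both strands, GTGGCGCTG was in 14 of the 15 beta promoters in the table, in 0 of the 13 gamma promoters and in 0.517% of all 33469 promoters. Pcdhb1 was the beta promoter without it. GCCGCTGT was in 6 of the 13 gamma promoters, those of Pcdhga7, Pcdhga8, Pcdhga9, Pcdhga10, Pcdhgb8 and Pcdhgc3, and in 1.17% of all promoters. The shorter CGCT that both contain was in 35 of the 39 promoters and in 60.9% of all promoters, so alone it sets few promoters apart. Both longer motifs were read off these promoters, so their counts describe the sequences and test nothing.

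Gamma genes were on the whole higher than beta genes, with a median of the gene means of 5.63 against 2.72. Pcdhgc3, a C-type gene with broader expression than the A and B types, was the highest clustered gene in 24 of 24 rats. Its Control values ran from 12.8 over a median of 25.7 to 28.6, its Low values from 13.5 over 24.1 to 26.2, and its High values from 21.0 over 23.6 to 25.6. The low ends of Control and Low came from rats 49 and 57. In the Low tables FPKM over coverage was 4.49 for this gene against a median of 1 in Control and High, so its Low coverage may not be the same measure.

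A-type and B-type gamma genes lay below. Over the 24 rats Pcdhga7 had a mean of 9.92, Pcdhga6 of 9.53, Pcdhga2 of 8.998, Pcdhgb7 of 7.33 and Pcdhga10 of 7.21. Intermediate means were 6.67 for Pcdhgb5, 6.003 for Pcdhgb8, 5.69 for Pcdhga4, 5.57 for Pcdhgb6, 5.51 for Pcdhga11 and 5.22 for Pcdhga8. Lower means were 3.93 for Pcdhga3, 3.43 for Pcdhgb4, 2.85 for Pcdhga9, 2.59 for Pcdhga5 and 1.71 for Pcdhga1. Pcdhgb1 was under the minimum at 0.540. Position in the cluster did not order the levels, since Pcdhga2 at 8.998 has Pcdhga1 and Pcdhga3 as its listed neighbours.

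**Figure D2:**
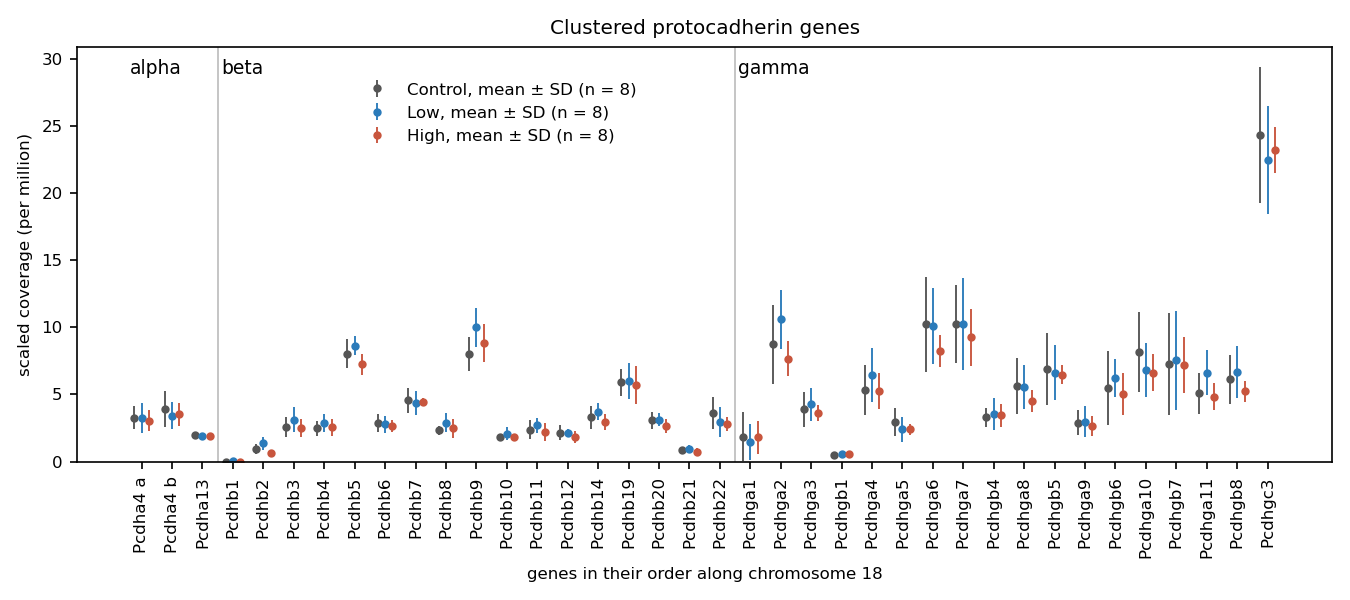
Mean scaled coverage of the 38 clustered genes in their order along chromosome 18, with bars of ± SD over the 8 rats of each group (the bars of Pcdhga1 that pass 0 are not drawn below it, and a and b are the Pcdha4 entries in the order named above). Pcdhgc3 at the end of the gamma genes stands above all others, near 23.3, and the group bars overlap for nearly every gene.

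Clustered and non-clustered genes differed in level far more than groups did. In each rat the median non-clustered gene was 4.85 to 8.51 times as high as the median clustered gene, and the group medians of this ratio were 7.10 for Control, 6.81 for Low and 6.03 for High. Summed over genes, the clustered genes reached a Control median of 196 per rat, a Low median of 200.5 and a High median of 167. The sum over the non-clustered genes had a Control median of 301, a Low median of 328 and a High median of 253. Both sums were thus lowest in High by median. Their ranges overlapped, as shown by clustered sums of 90.1 to 214 for Control, 114 to 230.3 for Low and 153 to 185 for High. The whole table was lowest there too. Its median tested gene per rat had a group median of 14.8 in High, beside 15.6 for Low and 15.9 for Control. Scaling mattered as well. The median log2 fold change of the 44 tested protocadherin genes in High against Control was -0.08 with scaling and 0.06 without it. The order of levels among the 49 genes was much the same in all rats, with a Spearman rho between any pair of rats of 0.818 to 0.982 and a median of 0.938 over 276 pairs, given as a description since the rats share the gene lengths and base composition.

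For the comparisons, limma was run over all 15644 genes with a mean scaled coverage of at least 1, on log2(scaled coverage + 1), where the added 1 shrinks the fold change of a low gene. Of the protocadherin genes, 44 were tested, 34 clustered and 10 non-clustered. Untested were Pcdhb1, Pcdhb2, Pcdhb21, Pcdhgb1 and Pcdh12.

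Low against Control asks whether the lower dose moved these genes. All 8 Low tables list 0 assembled loci and all Control and High tables list 46334 or more, so in both comparisons with Low the dose and the way the tables were made cannot be told apart. At an adjusted p under 0.05, 0 of the 44 genes were called by limma, beside 6.11% of all genes tested. At an unadjusted p under 0.05 there were 2, beside 18.4% of all genes, and the exact Wilcoxon rank-sum test called 0 beside 2.38% of all genes, also with 2 at the unadjusted level beside 17.4%. The median log2 fold change was 0.06 over the 44 genes and 0.06 over all genes. By class it was 0.13 over the 10 non-clustered genes, 0.11 over the 14 beta genes, 0.03 over the 17 gamma genes and -0.05 over the 3 alpha genes, and 15 of the 44 were below 0 beside 33.5% of all genes. Those shares were alike, so the protocadherin genes did not lean away from the table as a whole.

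Pcdhb9 came nearest to a call. In Control its values ran from 5.51 over a median of 8.04 to 9.75, and in Low from 7.33 over 9.94 to 11.8. The log2 fold change was 0.29 ± 0.10 (SE) with a limma adjusted p of 0.108. Pcdhga11 ran from 2.09 over 5.06 to 7.13 in Control and from 4.03 over 6.60 to 9.26 in Low, with a log2 fold change of 0.34 ± 0.16 and a limma adjusted p of 0.266. Group ranges overlapped for both genes. For 0 of the 44 genes were the 8 Low values clear of the 8 Control values, beside 1.53% of all genes.

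High against Control gave 0 calls among the 44 genes and 0 at an unadjusted p under 0.05 by limma, beside 0.0% and 2.11% of all genes. The exact Wilcoxon test called 0 as well, with 3 at the unadjusted level beside 5.67% of all genes. Fold changes were below 0 for 34 of the 44 genes, beside 64.0% of all genes, and the median was -0.08 over the 44 genes against -0.03 over all genes. Of the 10 non-clustered genes, 9 were below 0, all but Pcdh8 at 0.12 ± 0.11. Pcdh15 had the lowest value, -0.26. With coverage not scaled for depth, 11 of the 44 genes were below 0, beside 11.9% of all genes. The median was then 0.06 over the 44 genes and 0.14 over all genes, so the side of 0 here depended on the scaling. In both cases the median of the 44 genes lay below that of all genes. For 0 of the 44 genes were both groups clear of each other, beside 0.00639% of all genes.

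Low against High was the comparison with the most calls over all genes, 11.7%, yet 0 of the 44 protocadherin genes were called. At an unadjusted p under 0.05 limma had 5 genes, beside 29.1% of all genes, and the exact Wilcoxon test had 9 beside 33.3%, with 0 of the 44 called beside 7.33%. The median log2 fold change was 0.15 over the 44 genes against 0.09 over all genes, and 8 of the 44 were below 0 beside 30.1% of all genes. It was 0.24 over the non-clustered genes, 0.16 over the beta genes, 0.10 over the gamma genes and 0.03 over the alpha genes. With coverage not scaled for depth, the median was -0.02 over the 44 genes and -0.11 over all genes.

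Pcdhb5 had the smallest p. Its Low values ran from 7.76 over a median of 8.62 to 9.84 and its High values from 6.19 over 7.19 to 8.56, with a log2 fold change of 0.23 ± 0.08 and a limma adjusted p of 0.0625. Pcdhga2 ran from 7.32 over 10.6 to 14.3 in Low and from 5.53 over 7.55 to 9.16 in High, with a log2 fold change of 0.41 ± 0.16 and a limma adjusted p of 0.0945. Both had most Low values above most High values, with some overlap. As given above for the beta genes, FPKM and coverage of Pcdhb5 did not agree within 1% in every High table, while they did in every Low table. The coverage of Pcdhb5 may thus not be the same measure in Low and High. Pcdh20 had a log2 fold change of 0.31 ± 0.13 (limma adjusted p 0.101), Pcdhga11 of 0.37 ± 0.16 (0.137) and Pcdhb14 of 0.26 ± 0.12 (0.164). For 0 of the 44 genes were the groups clear of each other, beside 2.26% of all genes.

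What size of change these data could still hold is given by the intervals. The 95% intervals of limma lay within a 1.5-fold change in either direction for 33 of the 44 genes in Low against Control, 35 in High against Control and 32 in Low against High. For the others a change of that size was not excluded by the interval. Pcdhga1 had the widest interval, from -0.97 to 0.60 in Low against Control. Pcdh7 had an interval from -0.11 to 1.08 in Low against High, with a log2 fold change of 0.48 ± 0.29.

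**Figure D3:**
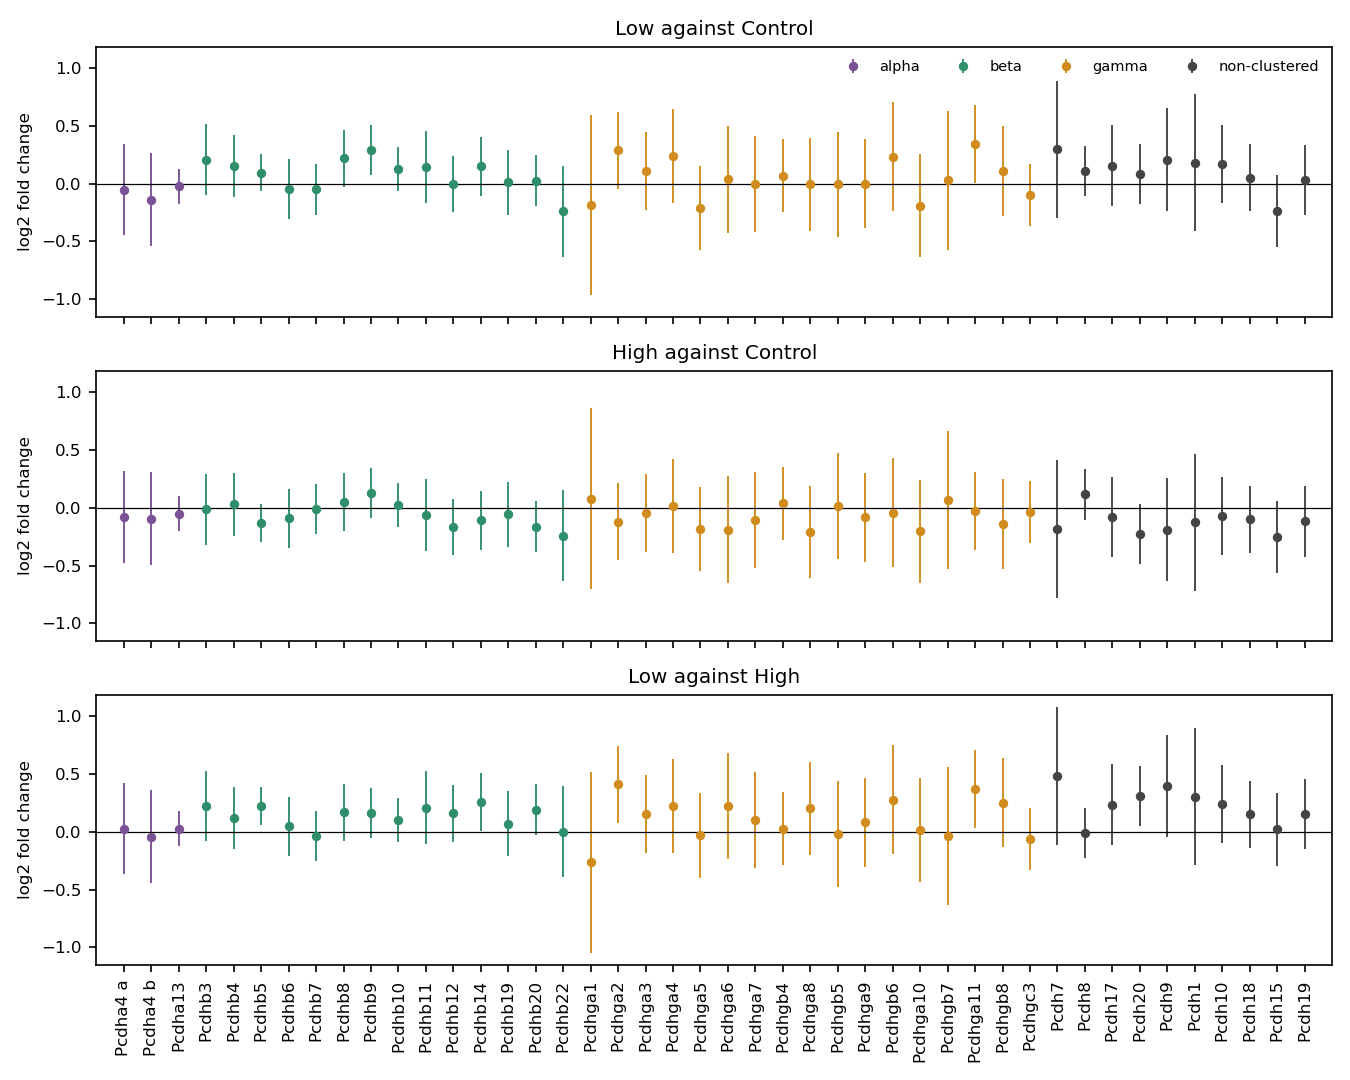
Log2 fold change with its 95% interval from limma for the 44 tested protocadherin genes in the 3 comparisons, coloured by class (a and b are the Pcdha4 entries in the order named above). Most intervals cross 0, those of Pcdhga1 and Pcdh7 are among the widest, and most values lie above 0 in Low against High, where 36 of 44 do.

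The spread within groups was larger for protocadherin genes than for the table as a whole. In Control the median coefficient of variation over the tested genes was 29.4% for clustered genes and 26.3% for non-clustered genes, against 16.9% for all genes tested. In Low it was 26.8% and 23.996% against 15.52%, and in High 20.4% and 22.9% against 14.4%. Gamma genes had 34.6% in Control and 20.6% in High, while beta genes had 21.5% and 20.04%.

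Rats 49 and 57 lay at the low end of these spreads. Rat 49 held the lowest Control value for 41 of the 44 genes, and rat 57 held the lowest Low value for 30 of them. Over all genes tested they held the lowest value of their group for 49.4% and 36.6%. The median log2 deviation of rat 49 from the Control median was -0.95 over the gamma genes, -0.74 over the non-clustered genes, -0.69 over the alpha genes and -0.49 over the beta genes, against -0.24 over all genes. In rat 57 it was -0.90 over the gamma genes, -0.63 over the non-clustered genes, -1.01 over the alpha genes and -0.16 over the beta genes, against -0.07 over all genes. In both rats, then, the beta genes lay closest to the rest of their group. No other rat had a median deviation over the 44 genes below -0.19, the value of rat 61.

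**Figure D4:**
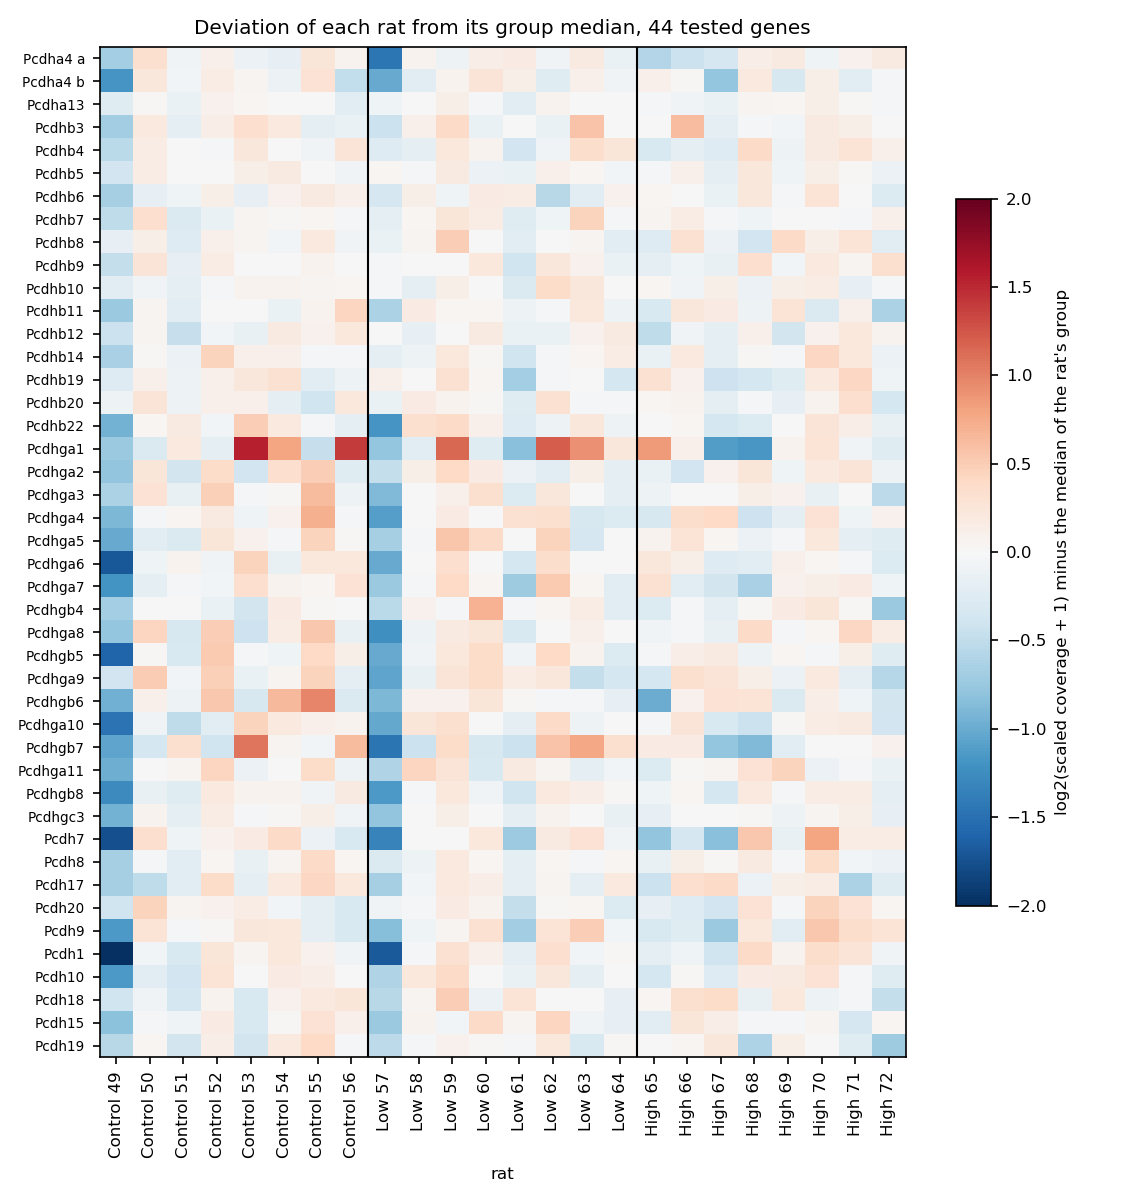
Heat map of log2(scaled coverage + 1) minus the median of the rat's own group, for the 44 tested genes in rows and the 24 rats in columns, with black lines between Control, Low and High. Rats 49 and 57 form blue columns, with median deviations of -0.72 and -0.64, and the row of Pcdhga1 is the most uneven.

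Without rats 49 and 57, a choice made after these values were seen, 45 protocadherin genes were tested, since Pcdhb2 then passed the minimum. In Low against High, limma called 10 of the 45, all with Low above High, beside 28.8% of all genes called in either direction and 21.3% called with Low above High. The 10 were Pcdh1, Pcdh7, Pcdh9, Pcdh10, Pcdhb2, Pcdhb5, Pcdhga2, Pcdhga6, Pcdhga11 and Pcdhgb8, with log2 fold changes from 0.22 for Pcdhb5 to 0.65 for Pcdh7. For Pcdh10 and Pcdhb5 the ratio of FPKM to coverage was not the same in every Low and High table. Their coverage may thus not be the same measure in both groups. The exact Wilcoxon test called 8 of the 45, beside 20.4% of all genes. A share of 22.2% of the protocadherin genes was thus close to the 21.3% of the whole table. In High against Control, limma called 1 of the 45 genes, Pcdhga6 with High lower (log2 fold change -0.41, adjusted p 0.0412), beside 2.49% of all genes. The exact Wilcoxon test called 0 there, and 42 of the 45 fold changes were below 0 beside 71.3% of all genes. In Low against Control both tests called 0 of the 45, limma with 4 genes at an unadjusted p under 0.05, beside 4.32% and 2.53% of all genes called.

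Other measures of rats 49 and 57 were as follows. Mitochondrial genes took 26.4% and 25.9% of their coverage, inside the range of the other rats. Summed markers of cortical neurons were 1684 in rat 49, the lowest of Control (median 2029), and 2003 in rat 57 (Low median 2076). Summed endothelial markers were 29.5 in rat 49 and 38.6 in rat 57, the lowest of both groups, beside medians of 51.2 and 51.1. Microglia markers were also lowest there, 86.3 and 102, beside medians of 122 and 126. Astrocyte markers were the lowest of both groups, with 552 in rat 49 and 636 in rat 57 beside medians of 754 and 752. Oligodendrocyte markers were 5125 and 5585 beside 5099 and 5618, and striatal markers were 827 and 295 beside 635 and 475. Markers of choroid plexus and meninges were 111 in rat 49, the highest of Control, and 41.7 in rat 57, beside 68.6 and 49.2. Precursors of oligodendrocytes had 151 and 159 beside 166 and 166, and blood had 165 and 197 beside 229.9 and 193. Of the listed markers 5 of 6 endothelial and 2 of 4 blood genes were found by name, those of the other lists all, and none was at 0 in every rat. The part of these in the low protocadherin values was not tested.

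Apart from those rats, Pcdhga1 varied most from rat to rat. Its values ran from 0.192 to 4.85 in Control, from 0.0531 to 3.36 in Low and from 0.277 to 4.17 in High, so every group held both rats near 0 and at least 1 rat above 3 (in High only rat 65). Its coefficient of variation was 97.7% in Control, 94.3% in Low and 68.9% in High, the highest of the tested clustered genes in each group.

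Pcdhga1 was picked for this spread after its values were seen, and its deviations from the group means were correlated with those of the other 43 tested genes over the 24 rats. Pcdhgb7 followed it most closely, with Pearson's r = 0.873 and Spearman's rho = 0.901. Each permutation p, from 100000 permutations within groups, was 1e-05, the smallest they can give, and 0.000215 after adjustment over the 43 relations. Pcdhga7 came next with r = 0.824 and rho = 0.868, with the same permutation p and adjusted p. These relations held within groups: for Pcdhgb7 r was 0.893 in Control, 0.866 in Low and 0.884 in High, and for Pcdhga7 it was 0.732, 0.891 and 0.890.

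Without the 2 rats farthest from the median of Pcdhga1, r was 0.835 for Pcdhgb7 and 0.806 for Pcdhga7. Without rats 49 and 57 it was 0.887 and 0.837. Pcdhga6 (r = 0.657, rho = 0.741) and Pcdhga10 (r = 0.647, rho = 0.678) had permutation p-values of 9e-05 and 0.0007 for r, adjusted to 0.00129 and 0.00752. In all, 8 of the 43 relations had an adjusted permutation p under 0.05 for r. These included beta genes too, Pcdhb10 (r = 0.613), Pcdhb22 (0.586) and Pcdhb19 (0.560), beside Pcdhgb8 (0.583). Such relations were not computed for genes outside the protocadherins, so how common they are over all genes is not known. Pcdhga2, the next gene along the cluster, had r = -0.04 and rho = -0.10 (permutation p = 0.884 and 0.679). All these points share their libraries, and reads that match several gamma exons could be counted for more than 1 of them.

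**Figure D5:**
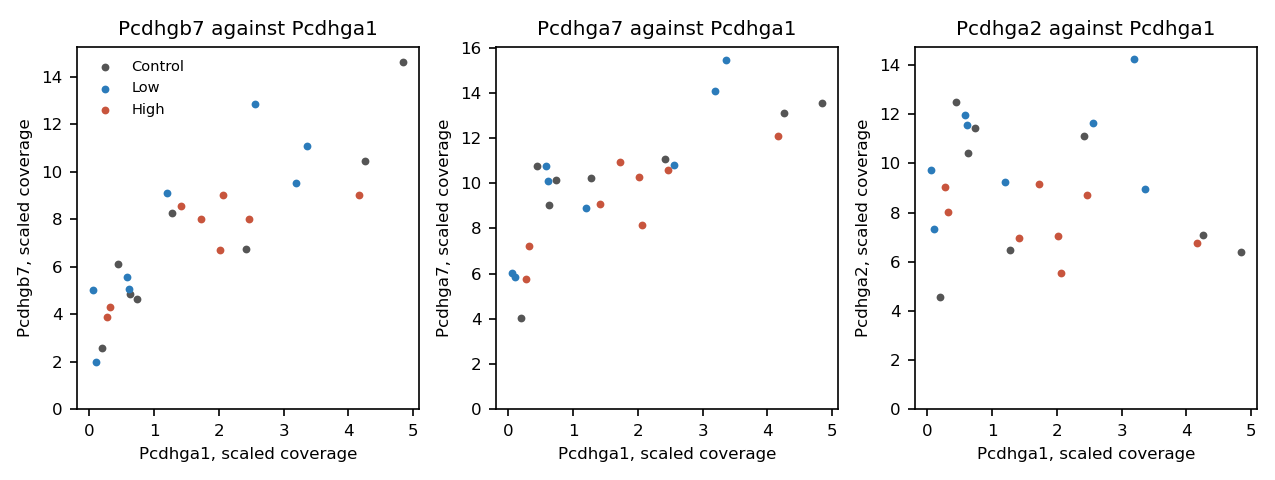
Scaled coverage of Pcdhgb7, Pcdhga7 and Pcdhga2 (vertical axes) against that of Pcdhga1 (horizontal axis), with 1 point per rat and colours for the groups. Pcdhgb7 and Pcdhga7 climb with Pcdhga1 in all 3 groups, with r = 0.873 and 0.824, while Pcdhga2 shows no such trend, with r = -0.04.

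Control and High tables also list loci that StringTie assembled from the reads of each rat, and these give a view of the cluster that the reference genes do not. Low tables list 0 such loci, so no dose comparison with Low can be made from them. Of the 38 clustered genes, 22 to 31 had an assembled locus with the same start and end in each of the 15 tables other than that of rat 56, and its coverage was the same as that of the gene in all of them. In such cases the tables give 1 level under 2 identifiers.

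The highest locus over Pcdhgc3 lay at the 3′ end of the gamma cluster, where the shared constant exons are known to be. In rat 50 it ended at position 30971116, which was 1755 bases past the listed end of Pcdhgc3. Its scaled coverage was 174 to 224 over the Control tables other than that of rat 56 and 165 to 212 in High. Pcdhgc3 itself had 12.8 to 28.6 in those tables. The 17 other gamma genes together summed to 36.4 to 120 in these Control rats and to 73.9 to 93.5 in High, so the 3′ locus was 1.81 to 2.51 times their sum in 14 of the 15 rats.

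Rat 49 was the exception. Its 3′ locus had a scaled coverage of 199, inside the range of the others, while its gamma sum was 36.4, the lowest. Its ratio was 5.47, above the other 14 rats. Against Pcdhgc3 alone, the locus was 15.503 times as high in rat 49 and 6.42 to 10.1 times as high in those 14 rats. In rat 49 the variable exons of the gamma genes were thus low while the 3′ end of the same cluster was not. For rat 57 the table holds no assembled locus, so this ratio cannot be formed there.

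Rat 56 differed in strand. Its table listed 166 assembled loci on the opposite strand within the span of the clustered genes and 47 on the same strand, against 3 to 11 and 87 to 109 in the other 15 tables. Over Pcdhgc3 its highest locus on the same strand had a scaled coverage of 39.9 and its highest on the opposite strand 451. The reference gene Pcdhgc3 had 24.5 in that rat, inside the Control range, and its median deviation over the 44 genes was -0.02.

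The deposited FPKM did not follow coverage equally for all genes. After dividing by the factor of each library, FPKM and coverage agreed within 1% in every library with coverage for 38 of the 49 genes. For Pcdhgc3 the ratio of FPKM to coverage had a median of 1 in Control and High but was 4.49 in all 8 Low rats. For Pcdha13 its median was 26.0 in Control, 25.0 in High and 37.0 in Low. Pcdh19 had medians of 1.39 in Control, 1.70 in High and 1.06 in Low. Pcdh10 had 1.06 in all 8 Low rats and a median of 1 in Control and High, and Pcdh7 reached 1.12 in Control. In the FPKM column limma called 32 of 41 protocadherin genes with Low above Control and 35 of 41 with Low above High, but 89.7% and 89.8% of all genes were called there, and Pcdhgc3 had a log2 fold change of 2.44 against Control where coverage gave -0.10. FPKM levels of Pcdhgc3 and Pcdha13 are not comparable between Low and the other tables.

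Genes that act with the clusters were looked at as fixed lists. Of 18 chromatin factors of the clusters, 17 were tested, among them CTCF, cohesin and its loaders, and methyltransferases. In Low against High limma called 4 of the 17 with Low above High and 1 below. Beside these, 11.7% of all genes were called in either direction and 5.30% with Low above High. Above were Smc1a (0.28 ± 0.07, adjusted p 0.0142) and Rad21 (0.23 ± 0.06, 0.0201), both parts of the cohesin ring. Stag2, another cohesin subunit, had 0.26 ± 0.08 (limma adjusted p 0.0421), and Nipbl, which loads cohesin, had 0.32 ± 0.09 (0.0300). For Stag2 the ratio of FPKM to coverage ran from 1.064 to 1.099 in Low and from 1.102 to 1.178 in High. Its coverage may thus not be the same measure in both groups. With libraries 56 to 62, grouped from a pattern in the data, as a covariate, the limma adjusted p-values of these 4 were 0.155, 0.304, 0.449 and 0.371. Those libraries are rat 56 of Control and rats 57 to 62 of Low, so the covariate largely overlaps with the Low group. With it, 2.26% of all genes were called in Low against High, and the dose and such a grouping cannot be told apart. With coverage not scaled, the limma adjusted p-values of the 4 were 0.942, 0.991, 0.955 and 0.883. Without rats 49 and 57 they were 0.00260, 0.00334, 0.00169 and 0.000416, beside 28.8% of all genes called. Of the 17 factors, 10 had an unadjusted limma p under 0.05 in Low against High, beside 29.1% of all genes. In Low against Control 3 had, beside 18.4%, and in High against Control 0, beside 2.11%.

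Pds5b, a cohesin regulator, was below in both comparisons with Low. Its Control values ran from 17.2 over a median of 30.8 to 34.1, its Low values from 16.4 over 19.5 to 21.6 and its High values from 20.6 over 26.6 to 31.0. The log2 fold change was -0.56 ± 0.10 against Control (limma adjusted p 0.000677) and -0.46 ± 0.10 against High (0.00399). In the FPKM column the same gene was above, by 0.77 and 0.85, and its ratio of FPKM to coverage had a median of 2.48 in Low, 1.26 in Control and 1.19 in High. The direction for Pds5b thus depended on which deposited column was read.

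In the other lists, limma called 0 of 11 genes of the WAVE complex and focal adhesion kinases and 0 of 7 genes of ADAM10 and gamma-secretase, which shed and cut clustered protocadherins, in each of the 3 comparisons, beside 6.11%, 0.0% and 11.7% of all genes. At an unadjusted p under 0.05 there were 2 and 1 in Low against Control, beside 18.4% of all genes, 0 and 0 in High against Control, beside 2.11%, and 4 and 2 in Low against High, beside 29.1%. Of 26 tested other cadherins, 2 were called in Low against High, beside 11.7% of all genes, and 7 had an unadjusted p under 0.05, beside 29.1%. In Low against Control 0 were called and 5 had an unadjusted p under 0.05, beside 18.4%, and in High against Control both counts were 0. The called genes were Cdh18 (0.39 ± 0.12, limma adjusted p 0.0285) and Cdh10 (0.37 ± 0.12, 0.0461), both type II classical cadherins and both with Low above High. With libraries 56 to 62 as a covariate, which largely overlaps with Low as given above, their limma adjusted p-values were 0.284 and 0.424. With coverage not scaled they were 0.767 and 0.810, and with median-of-ratios scaling 0.0628 and 0.0768. Without rats 49 and 57 they were 0.0125 and 0.0173, beside 28.8% of all genes called. Of 17 tested genes beside or inside the span of the clusters, 0 were called in any comparison, with 5 at an unadjusted p under 0.05 in Low against High, beside 29.1% of all genes, 1 in Low against Control, beside 18.4%, and 0 in High against Control, beside 2.11%. Among these genes, LOC108348201, LOC108348233, LOC108348771, AC131360.1, AC131360.2 and AABR07031734.2 lie on the + strand between clustered genes and carry no Pcdh name. Whether they are protocadherin genes was not tested, so the class counts and sums above cover only genes named Pcdh. The median log2 fold change in Low against High was 0.18 over the chromatin factors and 0.22 over the other cadherins. Over the neighbouring genes it was 0.09, against 0.09 over all genes.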

How the data were processed

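Polyadenylated RNA of 24 rats was sequenced from stranded libraries. Per the labels, the authors used FastQC, Trimmomatic, TopHat2 and StringTie. They deposited 1 gene table per rat with the coverage (mean read depth per base, a signal not scaled for depth), the FPKM and the TPM of each gene. For Low rats the deposited TPM adds up to 1000000. For Control and High rats the deposited TPM is treated as a score, since their assembled loci alone reach that sum. Tool versions and options were not found in any source used here. Coverage was summed per gene identifier, divided by the sum over the 32883 reference genes and multiplied by 1000000. Those with a mean of 1 or more were tested with limma 3.58.1 (trend, robust) in R 4.3.3 on log2(value + 1), in a two-sided fit of all 3 groups together, at an adjusted p under 0.05 (Benjamini-Hochberg). No source says more of the replicates than 1 rat per library. Python 3.11.15, pandas 2.3.3, numpy 2.4.6, scipy 1.17.1 and matplotlib 3.10.9 were used. limma and the exact Wilcoxon test were checked on simulated data.

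The members and lists were chosen with earlier results of these data known. Named are all members with a mean of at least 1 and, of the lists, genes past the threshold. Alternatives were a pseudocount of 0.1, no filter or a minimum of 5, no scaling, median-of-ratios scaling, scaling without mitochondrial genes, the FPKM and TPM columns, only the groups compared, exact Wilcoxon tests, libraries 56 to 62 (grouped from a pattern in the data) as a covariate, and each rat left out. Leaving out rats 49 and 57, or libraries 56 to 62, was chosen after seeing the data.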

Additional observations from a re-analysis of the deposited data

Results flagged for a closer look

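Dixon's test was applied to the scaled coverage of the 44 tested genes in each group of 8 rats, 132 sets in all, and marked 12 of them, where chance alone gives about 6.6. Of the 12, 5 belong to rat 57 and 4 to rat 49.

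Rat 57 lay below the other 7 Low rats for Pcdh1 at 15.97 (others 47.2 to 67.5), for Pcdhgc3 at 13.5 (others 20.9 to 26.2), for Pcdhgb6 at 3.02 (others 5.66 to 7.82), for Pcdhb11 at 1.45 (others 2.52 to 3.39) and for the Pcdha4 entry ENSRNOG00000050378 at 0.648 (others 3.12 to 4.08). Rat 49 lay below the other 7 Control rats for Pcdh1 at 10.4 (others 40.6 to 59.8), for Pcdhgc3 at 12.8 (others 22.3 to 28.6), for Pcdhga6 at 2.54 (others 9.39 to 14.6) and for Pcdhgb8 at 2.15 (others 5.43 to 7.71).

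Of the remaining 3 values, each lay above its group. Rat 60 had 6.10 for Pcdhgb4 (other Low rats 2.03 to 3.88), rat 59 had 4.45 for Pcdhb8 (other Low rats 2.30 to 2.99) and rat 66 had 3.98 for Pcdhb3 (other High rats 1.89 to 2.69).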

How the results depend on the processing

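No paired analysis was possible because the groups share no replicate numbers. In the report's fit 0 protocadherin genes were called in either direction of the 3 comparisons. Brackets give the share of all genes called in the same direction. For Low above Control the count was 1 with scaling without mitochondrial genes (5.33%), 32 with the FPKM column (86.5%) and 3 with the TPM column (20.4%). It was 0 to 1 with each rat left out, with 1 without rat 61 (2.06%). For Low above High it was 1 without a filter (2.91%), 1 without mitochondrial genes (9.81%), 35 with FPKM (86.2%) and 2 with TPM (19.2%). It was 2 with only the groups compared (6.74%) and 10 without rats 49 and 57 (21.3%). With each rat left out it was 0 to 3, with 3 without rat 49 (10.2%). High below Control became 1 without rats 49 and 57 (2.44%). Every other count of protocadherin genes stayed at 0 under the other alternatives.

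The lists of other genes of the pathway held 17, 11, 7, 26 and 17 tested genes in the report's fit. Over all lists, 1 gene was called in Low against Control, beside 6.11% of all genes. Alternatives follow, with the share of all genes called in either direction in brackets. There were 3 with median-of-ratios scaling (6.94%), 6 without mitochondrial genes (10.7%), 66 with FPKM (89.7%) and 19 with TPM (25.4%). There were 0 with the Wilcoxon test (2.38%), 2 without rats 49 and 57 (4.32%) and 0 without libraries 56 to 62 (2.20%). With each rat left out there were 1 to 2. In High against Control 0 were called (0.0%), and 2 without rats 49 and 57 (2.49%). In Low against High 7 were called (11.7%). There were 1 without scaling (7.21%), 11 without mitochondrial genes (16.8%), 67 with FPKM (89.8%) and 20 with TPM (25.2%). There were 1 with the covariate (2.26%), 37 without rats 49 and 57 (28.8%) and 0 without libraries 56 to 62 (2.26%). With each rat left out there were 2 to 14. The 14 came without rat 49 (17.1%) or rat 57 (15.0%), and the 2 without rat 59 (8.20%). Pds5b changed sign, with log2 fold changes of 0.77 against Control and 0.85 against High with FPKM and 0.39 and 0.47 with TPM. Apart from the FPKM and TPM ratios given in the report, the cause was not tested. The tables give no read counts, so what depth limits for genes such as Pcdhb1 is not known.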
